A study of Mus musculus with 8 samples.

Results

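The genes described here are 40 genes of DNA replication and of the step from G1 into S phase (G1/S), picked by name from a table of 53465 mouse genes. All 40 were found by symbol, and all 40 were among the 16380 genes expressed highly enough to be tested. RNA came from the colon of 8 mice with colitis caused by DSS (dextran sulfate sodium, an epithelium-damaging polymer). The mice drank 2.5% DSS for a week and then plain water up to day 10. In 4 mice, called Arg1 ko, the arginase 1 gene was deleted conditionally in certain cells. The other 4, called wild type, were littermates that expressed Arg1. All mice were on the B6 background, 7 to 12 weeks old, matched for age and sex, and kept free of specific pathogens, and all received DSS. Which promoter or Cre line drove the deletion, and in which cells it acted, is not stated by the labels. The question asked of these genes was whether the replication machinery of the recovering colon differed between the genotypes.

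Copying the genome starts in G1, when Cdc6 and Cdt1 load the ring-shaped MCM helicase onto origins. In S phase Cdc45 and the GINS complex join the ring and switch it on, polymerases copy the strands, and the sliding clamp Pcna holds them on the DNA. Cyclin E and the transcription factor E2f1 drive cells across the G1/S boundary, and E2F factors switch on many replication genes at that point. In the colon these genes are active mainly in the dividing cells of the crypts, which replace the epithelium after injury.

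Promoters of the members were searched for the E2F motif, which is known from many S phase genes, and were taken from RefSeq (build GRCm38.p6, 250 bases before to 50 after each start). The motif was spelled TTTCCCGC or TTTGGCGC on either strand. It was present in 10 of 38 promoters of the 33 members in that table, or 26.3%, against 1.56% of all 32851 promoters. The members with a match were Cdc6, Cdt1, Gins3, Mcm3, Mcm5, Mcm6, Mcm7, Pola1, Pold1 and Rfc3. Among 45 other replication genes listed by name, 11 of 43 promoters held it (25.6%), while none of 27 promoters of mitosis genes did. The mitosis promoters held another motif, TTTGAA (known as CHR), in 74.1%, against 10.5% of the members' promoters and 17.9% of all. CCAAT, the third motif searched, was present in 57.9% of the members' promoters, 81.5% of those of mitosis genes and 37.4% of all. To show where the E2F letters lie, the 150 bases before the start are given for 4 members, 5′ to 3′ on the gene's own strand, with each match in capitals. The starts are those of RefSeq. The GENCODE gene of Cdc6 begins further upstream, so its stretch lies inside that gene, in no annotated exon.
Pola1 (chrX:93632156-93632305, minus strand): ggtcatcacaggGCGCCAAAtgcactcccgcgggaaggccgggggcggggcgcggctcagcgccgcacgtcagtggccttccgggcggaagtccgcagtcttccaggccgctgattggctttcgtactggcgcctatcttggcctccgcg
Mcm5 (chr8:75109359-75109508, plus strand): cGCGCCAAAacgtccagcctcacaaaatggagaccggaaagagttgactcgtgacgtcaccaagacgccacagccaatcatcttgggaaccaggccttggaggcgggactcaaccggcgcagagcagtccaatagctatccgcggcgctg
Cdc6 (chr11:98908001-98908150, plus strand): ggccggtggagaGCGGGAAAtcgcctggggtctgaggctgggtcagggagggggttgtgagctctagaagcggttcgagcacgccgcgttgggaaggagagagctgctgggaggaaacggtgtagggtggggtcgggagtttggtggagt
Mcm6 (chr1:128359706-128359855, minus strand): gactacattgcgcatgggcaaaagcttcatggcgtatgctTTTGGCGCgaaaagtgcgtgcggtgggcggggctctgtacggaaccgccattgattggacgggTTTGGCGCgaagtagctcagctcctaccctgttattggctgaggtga
Mcm6 carried the same 8 letters at both marked places, 110 and 47 bases before the start. Pola1 and Mcm5 carried them in reverse complement, as did Cdc6 with the other spelling. The difference between genotypes, described next, had a median of 0.31 in the 10 members with a match and of 0.092 in the 23 without. It ran from -0.17 to 0.46 with a match and from -0.18 to 0.63 without, so the ranges overlapped. Whether the motif goes with the difference was not tested.

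All values are regularised log2 values (rlog), and each difference is Arg1 ko minus wild type on that scale. The depth of each library is unknown, because rlog keeps no counts. Arg1 itself gives only a limited check of the labels, because the deletion was conditional and its cells are not stated. Arg1 was also weakly expressed, with a mean rlog of 5.25 and 16.8% of tested genes below it. Its values under the wild-type label, in the order 1 to 4, were 5.59, 5.57, 5.02 and 5.58, and under the Arg1 ko label 5.06, 4.87, 5.15 and 5.19. Below, 4 values of a genotype are always given in this order. The library labelled wild type 3 thus lay among the Arg1 ko values, which does not decide whether its label is right. The Arg1 difference was -0.37 ± 0.15 (standard error; limma adjusted p = 0.522, and exact two-sided permutation p = 0.114 over 70 assignments, where 0.0286 is the smallest possible). Libraries of the wild type also stood apart from each other: 76 ribosomal protein genes, each set to its mean over the 8 libraries, averaged 0.66 in wild type 1 and 0.40 in wild type 2, and of -0.35 to 0.10 in the other 6 libraries. Of these 76 genes 1 had a higher mean in Arg1 ko, and their median difference was -0.42.

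As a group the replication genes leaned higher in Arg1 ko without any of them passing the test. No member had an adjusted p under 0.05 (limma, 0 of 40, against 0% of the 16380 tested genes), and the smallest adjusted p among them was 0.522. The mean was higher in Arg1 ko for 28 members and lower for 12, that is 70% higher against 51.2% of all tested genes. The median difference was 0.15, against 0.0064 over all tested genes, with members from -0.18 to 0.63. At an unadjusted p under 0.05 there were 4 members, Uhrf1, Gins3, Pole and Pola1, all higher in Arg1 ko (10% of members, against 4.73% of tested genes on that side, 4.37% on the lower side and 9.1% in either direction). In no member did the 4 Arg1 ko values lie entirely above the 4 wild-type values (0 of 40, against 2.36% of tested genes) or entirely below them (0 of 40, against 1.67%). In 16 members (40%, against 52.3% of tested genes) all 4 Arg1 ko values fell inside the wild-type range. Without the library labelled wild type 3, 2 members passed, both higher in Arg1 ko, namely Pole (0.67, limma adjusted p = 0.0427) and Pola1 (0.65, limma adjusted p = 0.0492). That is 5% of the members, against 2.85% of tested genes higher, 3.28% lower and 6.14% in either direction. That library is the wild-type one nearest to Arg1 ko for both, so leaving it out enlarges their differences by construction. Without wild type 1 the median was 0.26 with 37 members higher, and without Arg1 ko 3 it was 0.086 with 24 higher. In bulk tissue RNA, a different number of dividing cells and a different amount of this RNA in each cell cannot be told apart.

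**Figure D1:**
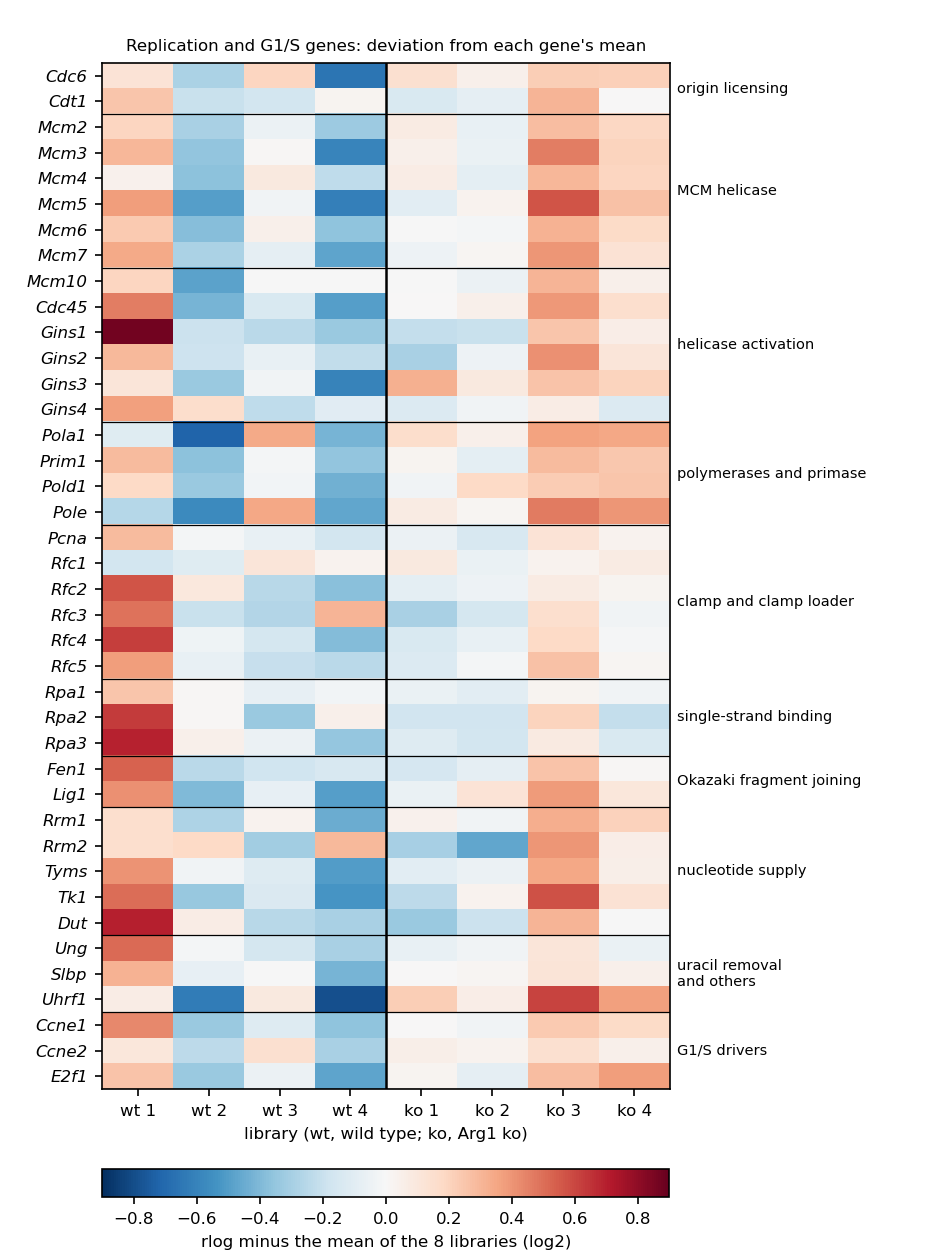
Deviation of each of the 40 members (rows, by role) from its mean over the 8 libraries (columns), in rlog (log2), with red above and blue below. Wild type 4 is the lowest library in 24 members, wild type 2 in 8, and wild type 1 and Arg1 ko 3 are each the highest in 18.

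Of the origin licensing genes, Cdc6 leaned higher in Arg1 ko and Cdt1 lay close to 0, and neither passed the test. Cdc6 (ENSMUSG00000017499, chromosome 11, 98907801 to 98923940), the loader that brings the helicase to origins, stood at 6.99, 6.58, 7.06 and 6.21 in wild type and at 7.01, 6.91, 7.09 and 7.08 in Arg1 ko. The difference was 0.32 ± 0.18 (SE; limma adjusted p = 0.533). The Arg1 ko libraries lay close together near the top of the wild-type range, while wild type 4 and wild type 2 were lower. Cdt1, its partner in loading, differed by 0.042, with its highest values in wild type 1 (8.89) and Arg1 ko 3 (8.94).

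All 6 subunits of the MCM helicase, the ring that unwinds DNA at the fork, had a higher mean in Arg1 ko, by a median of 0.24 and by 0.23 to 0.39. Mcm2 stood at 9.49, 9.0, 9.24 and 8.97 in wild type and at 9.37, 9.23, 9.57 and 9.48 in Arg1 ko. Mcm3 stood at 9.61, 8.96, 9.32 and 8.72 in wild type and at 9.36, 9.25, 9.77 and 9.51 in Arg1 ko. In both genes wild type 1 lay among the Arg1 ko values, and wild type 2 and 4 lay below all of them. Mcm4 stood at 9.40, 8.99, 9.45 and 9.13 in wild type and at 9.43, 9.27, 9.66 and 9.55 in Arg1 ko. Here too wild type 2 and 4 were below every Arg1 ko library, and wild type 1 lay among them. Mcm5 (ENSMUSG00000005410, chromosome 8, 75109569 to 75128439) stood at 9.57, 8.70, 9.16 and 8.58 in wild type and at 9.10, 9.23, 9.76 and 9.46 in Arg1 ko. It had the largest difference of the ring, 0.39 ± 0.22 (SE), or 9.0 ± 0.45 (SD, n = 4) against 9.39 ± 0.29 (SD, n = 4). Wild type 1 was second only to Arg1 ko 3. Mcm6 stood at 10.63, 10.01, 10.44 and 10.03 in wild type and at 10.39, 10.38, 10.71 and 10.57 in Arg1 ko. Mcm7 stood at 10.26, 9.64, 9.84 and 9.45 in wild type and at 9.88, 9.94, 10.32 and 10.05 in Arg1 ko. The same libraries marked the ends throughout the ring: Arg1 ko 3 was the highest library in all 6 subunits, and wild type 2 or wild type 4 the lowest. The differences of Mcm2, Mcm3, Mcm4, Mcm6 and Mcm7 were 0.24 ± 0.14, 0.32 ± 0.19, 0.23 ± 0.13, 0.24 ± 0.15 and 0.25 ± 0.17 (SE). The limma adjusted p of the 6 subunits ran from 0.531 to 0.569, and the sign of each difference was the same in all 17 alternatives. Those that change only the filter or the variance moderation cannot alter a difference, so they keep its sign by construction. Summed over the 6 subunits (log2 of the summed linear values), the ring ran from 11.82 to 12.49 in wild type and from 12.21 to 12.61 in Arg1 ko.

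The helicase activators, which turn the loaded ring into a working fork, went different ways. Gins3 (ENSMUSG00000031669, chromosome 8, 95633453 to 95645060), a GINS subunit, stood at 6.08, 5.64, 5.94 and 5.37 in wild type and at 6.29, 6.06, 6.23 and 6.17 in Arg1 ko. It was higher in Arg1 ko by 0.43 ± 0.16 (SE; limma adjusted p = 0.522), and only wild type 1 reached the lowest Arg1 ko value. Gins1, its partner subunit, stood at 7.23, 6.17, 6.12 and 6.03 in wild type and at 6.15, 6.16, 6.61 and 6.42 in Arg1 ko. Wild type 1 was more than a log2 unit above the other 3 wild-type libraries, and the difference of -0.051 ± 0.25 (SE; limma adjusted p = 0.939) became 0.23 without it. Gins4 stood at 9.04, 8.83, 8.44 and 8.57 in wild type and at 8.55, 8.64, 8.74 and 8.55 in Arg1 ko, a difference of -0.10 ± 0.14 (SE; limma adjusted p = 0.753), with all Arg1 ko values inside the wild-type range. Gins2, the remaining subunit, differed by 0.090 and shared 67.3% of its exon bases with Gse1 on the opposite strand. Cdc45, the helicase cofactor, differed by 0.29, and Mcm10, which helps to activate the helicase, by 0.15. The 4 subunits of one complex thus had differences from -0.10 to 0.43, each with a standard error of 0.14 to 0.25.

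The polymerase and primase members had the highest median difference of the 10 role groups, 0.38, with all 4 genes higher in Arg1 ko. Other subunits of these enzymes, listed outside the members, went both ways. Pole2 (0.27), Pola2 (0.17), Pold2 (0.11) and Prim2 (0.013) had a higher mean in Arg1 ko. Pole3 (-0.16), Pold4 (-0.15), Pole4 (-0.066) and Pold3 (-0.04) had a lower one. Pole (ENSMUSG00000007080, chromosome 5, 110286306 to 110337474), the catalytic subunit of the leading-strand polymerase, stood at 7.10, 6.78, 7.70 and 6.89 in wild type and at 7.43, 7.37, 7.82 and 7.75 in Arg1 ko. Wild type averaged 7.12 ± 0.41 (SD, n = 4), and Arg1 ko averaged 7.59 ± 0.23 (SD, n = 4), which is higher by 0.47 ± 0.20 (SE; limma adjusted p = 0.522; range over the alternatives 0.0427 to 0.819). The library labelled wild type 3 lay among the Arg1 ko values and the other 3 wild-type libraries lay below them. Pola1 (ENSMUSG00000006678, chromosome X, 93304767 to 93632155), which starts each new strand together with primase, showed the same arrangement, with 7.85, 7.24, 8.30 and 7.54 in wild type and 8.12, 8.01, 8.32 and 8.31 in Arg1 ko. Its difference was 0.46 ± 0.20 (SE). Pold1, the catalytic subunit of the lagging-strand polymerase, differed by 0.31, and Prim1, the primase that lays the RNA primer, by 0.23.

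**Figure D2:**
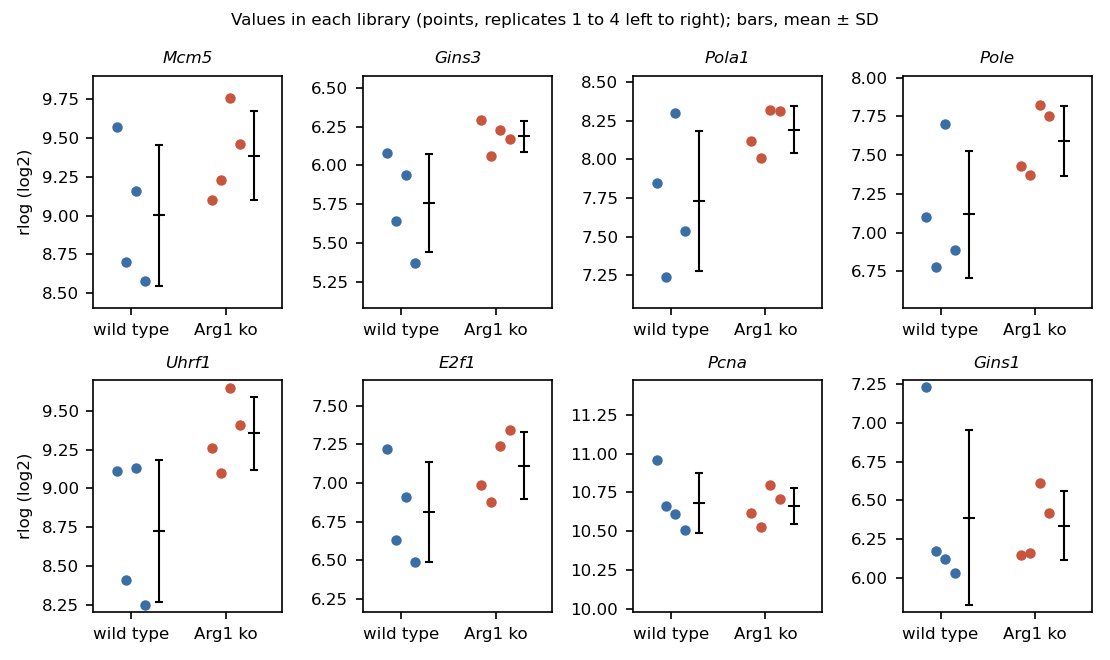
Rlog values (log2) of 8 members in each library, wild type in blue and Arg1 ko in red, with the mean and SD of each group beside the points; each panel spans the same range of 1.5. The groups overlap in every panel, most of all in Pcna and Gins1.

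The clamp and its loader lay close to 0, with a median difference of -0.017, 2 of 6 genes higher in Arg1 ko and 4 lower, and after the length correction described below 4 higher. The difference from the helicase or the polymerases was not tested. Pcna (ENSMUSG00000027342, chromosome 2, 132249162 to 132253314), the sliding clamp and a common marker of dividing cells, stood at 10.96, 10.66, 10.61 and 10.51 in wild type and at 10.62, 10.53, 10.80 and 10.71 in Arg1 ko. The difference was -0.018 ± 0.12 (SE; limma adjusted p = 0.951), and all Arg1 ko values fell inside the wild-type range. Of the 5 loader subunits, which open the clamp and set it on DNA, Rfc2 stood at 10.68, 10.21, 9.87 and 9.74 in wild type and at 10.03, 10.07, 10.19 and 10.14 in Arg1 ko. Rfc3 stood at 8.75, 8.06, 8.00 and 8.57 in wild type and at 7.97, 8.10, 8.41 and 8.23 in Arg1 ko. Rfc4 stood at 8.64, 7.98, 7.86 and 7.63 in wild type and at 7.88, 7.95, 8.20 and 8.01 in Arg1 ko. In each of these wild type 1 was the highest of the 8 libraries, and the Arg1 ko libraries lay inside the wild-type range except for Arg1 ko 1 in Rfc3, just below it. The differences of Rfc2, Rfc3 and Rfc4 were -0.018 ± 0.18, -0.17 ± 0.18 and -0.017 ± 0.20 (SE; limma adjusted p of 0.969, 0.697 and 0.974), and those of Rfc2 and Rfc4 became 0.17 and 0.19 without wild type 1. Rfc1 and Rfc5 differed by 0.067 and 0.072. Rfc3 alone among the loader genes with a negative difference kept that sign in all 17 alternatives.

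The single-strand binding proteins, which coat exposed DNA behind the helicase, had a lower mean in Arg1 ko in all 3 subunits, none of them past the test. Rpa1, the largest subunit, stood at 10.55, 10.31, 10.23 and 10.28 in wild type and at 10.24, 10.21, 10.33 and 10.27 in Arg1 ko, a difference of -0.077 ± 0.10 (SE). Rpa2 stood at 9.35, 8.73, 8.39 and 8.77 in wild type and at 8.55, 8.55, 8.92 and 8.51 in Arg1 ko, a difference of -0.18 ± 0.19 (SE). Rpa3 stood at 9.13, 8.48, 8.38 and 8.09 in wild type and at 8.32, 8.27, 8.52 and 8.30 in Arg1 ko, a difference of -0.17 ± 0.20 (SE). Wild type 1 was the highest library in each, and without it Rpa2 (0.0034) and Rpa3 (0.036) no longer had a lower mean in Arg1 ko. All 3 were lower by less than their standard error, with a limma adjusted p from 0.692 to 0.731, and without wild type 1 and 2 all 3 had a higher mean in Arg1 ko.

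The enzymes that finish Okazaki fragments, the short pieces of the lagging strand, had all Arg1 ko values inside the wild-type range. Lig1, which seals the nicks, stood at 9.82, 9.01, 9.33 and 8.91 in wild type and at 9.35, 9.53, 9.79 and 9.51 in Arg1 ko, a difference of 0.28 ± 0.19 (SE; limma adjusted p = 0.563). Wild type 1 was the highest of the 8 libraries and the other 3 wild-type libraries lay below every Arg1 ko library. Fen1, the nuclease that trims the flaps, differed by 0.016 ± 0.18 (SE), and by -0.043 without the library labelled wild type 3. Of its exon bases, 78.8% lie opposite an annotated antisense gene.

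Genes of nucleotide supply were split. Rrm1, the large subunit of the ribonucleotide reductase that makes DNA building blocks, stood at 10.30, 9.87, 10.18 and 9.70 in wild type and at 10.19, 10.12, 10.48 and 10.36 in Arg1 ko. It was higher in Arg1 ko by 0.27 ± 0.15 (SE; limma adjusted p = 0.522). Rrm2, the small subunit of the same enzyme, stood at 9.68, 9.71, 9.22 and 9.82 in wild type and at 9.23, 9.06, 9.93 and 9.59 in Arg1 ko. Its difference was -0.15 ± 0.20 (SE; limma adjusted p = 0.74), and wild type 4, the lowest library for Rrm1, was the highest wild-type library for Rrm2. Dut, which removes dUTP and makes the precursor of thymidylate, stood at 9.69, 9.06, 8.74 and 8.70 in wild type and at 8.66, 8.80, 9.30 and 8.99 in Arg1 ko, a difference of -0.11 ± 0.22 (SE; limma adjusted p = 0.845) that became 0.11 without wild type 1. Tyms, the thymidylate synthase, and Tk1, the thymidine kinase of S phase, differed by 0.13 and 0.25.

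Uhrf1 (ENSMUSG00000001228, chromosome 17, 56303321 to 56323486), which brings the methyltransferase Dnmt1 to newly copied DNA, had the largest difference of all 40 members. It stood at 9.11, 8.41, 9.13 and 8.25 in wild type and at 9.26, 9.10, 9.65 and 9.41 in Arg1 ko. Its mean was 8.72 ± 0.46 (SD, n = 4) for wild type, while Arg1 ko had 9.36 ± 0.23 (SD, n = 4), higher by 0.63 ± 0.22 (SE; limma unadjusted p = 0.015, adjusted p = 0.522; range over the alternatives 0.0671 to 0.819). Wild type 1 and the library labelled wild type 3 reached the lowest Arg1 ko value, and wild type 2 and 4 lay well below it. Ung, which cuts uracil out of DNA, stood at 9.0, 8.47, 8.33 and 8.20 in wild type and at 8.42, 8.46, 8.60 and 8.43 in Arg1 ko, a difference of -0.022 ± 0.16 (SE; limma adjusted p = 0.959) with all Arg1 ko values inside the wild-type range. Slbp, which binds the histone messages made in S phase, differed by 0.092, with Arg1 ko values between 9.61 and 9.72.

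The drivers of the G1/S step were slightly higher in Arg1 ko in all 3 cases, and none passed the test. E2f1 (ENSMUSG00000027490, chromosome 2, 154559407 to 154569892), the transcription factor, stood at 7.22, 6.63, 6.91 and 6.49 in wild type and at 6.99, 6.88, 7.24 and 7.34 in Arg1 ko. Its difference was 0.30 ± 0.18 (SE; limma adjusted p = 0.536), and only wild type 1 and the library labelled wild type 3 overlapped with Arg1 ko. Ccne1, cyclin E1, stood at 7.56, 6.79, 7.01 and 6.76 in wild type and at 7.13, 7.09, 7.36 and 7.30 in Arg1 ko, a difference of 0.19 ± 0.18 (SE; limma adjusted p = 0.657). Ccne2, cyclin E2, stood at 6.83, 6.49, 6.87 and 6.43 in wild type and at 6.78, 6.76, 6.87 and 6.77 in Arg1 ko, a difference of 0.14 ± 0.13 (SE; limma adjusted p = 0.652). For both cyclins wild type 2 and 4 were the lowest libraries and wild type 1 was at or above most of Arg1 ko.

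**Figure D3:**
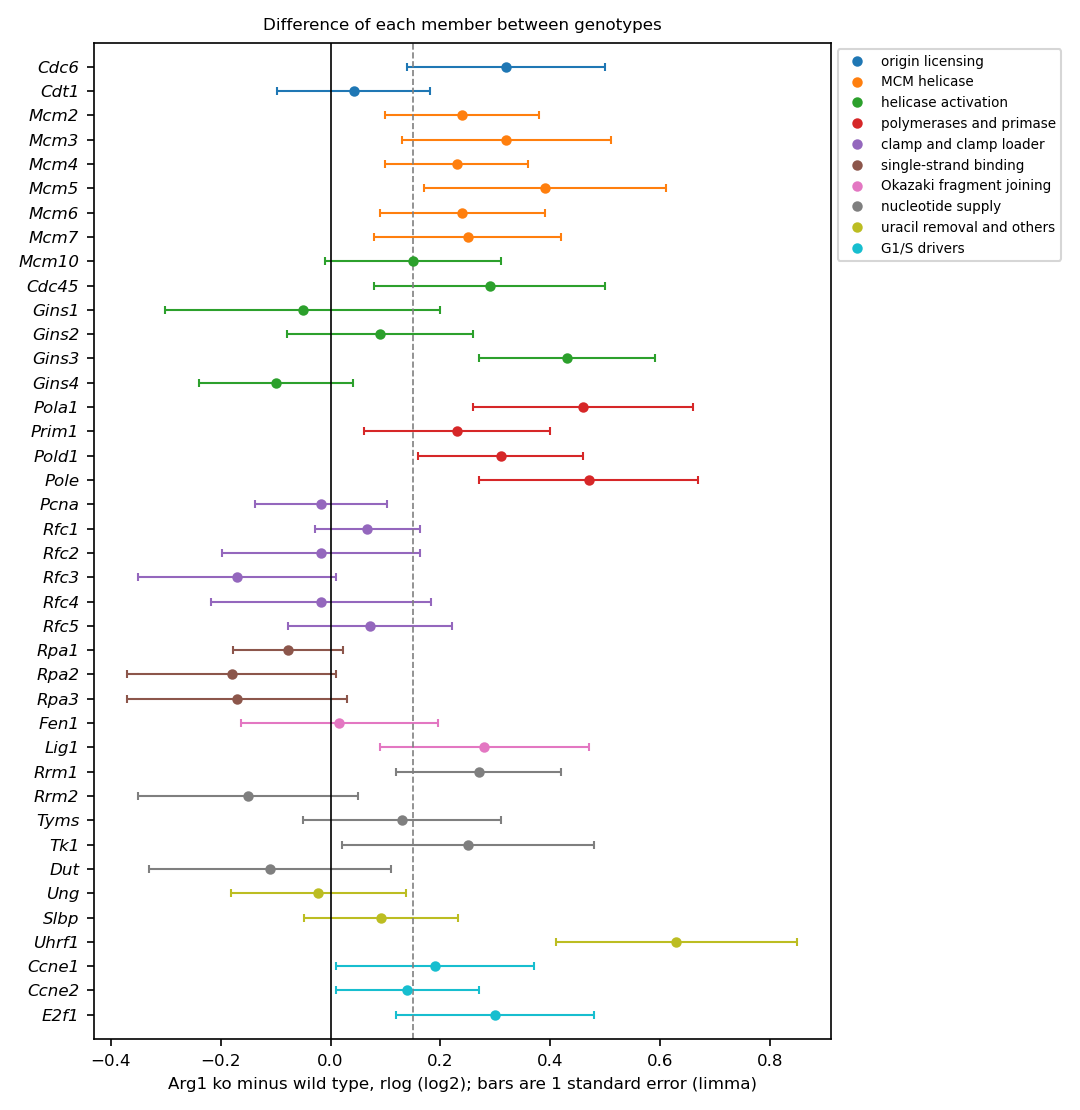
Difference of each member between the genotypes (points; Arg1 ko minus wild type, rlog, log2) with 1 standard error from limma (bars), coloured by role; the dashed line is the members' median of 0.15. The MCM helicase and the polymerases lie to the right of 0, and the single-strand binding genes lie to its left.

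The members differed among themselves in level as well. Scaled by exon length (mean rlog minus the log2 of the exon length in kilobases), Pcna was the highest at 9.41, followed by Rpa3 at 8.25, Gins4 at 8.24 and Mcm6 at 8.17. The lowest were Pole at 3.87, Cdc6 at 4.48, Gins3 at 4.54 and Pola1 at 4.82. Within the MCM ring this length-scaled level ran from 6.49 for Mcm2 to 8.17 for Mcm6. Within the GINS complex it ran from 4.54 for Gins3 to 8.24 for Gins4. Gins3, Pole and Pola1, with differences of 0.43 to 0.47, were thus among the most weakly expressed members on this scale.

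Much of the spread lay within the wild type. The SD was larger in wild type than in Arg1 ko for 38 of 40 members, with Gins2 and Rrm2 as exceptions, and for 90.9% of all tested genes. The members' SD had a median of 0.35 for wild type against 0.16 for Arg1 ko, and of 0.26 and 0.10 over all tested genes. Averaged over the 40 members, each set to its own mean, the libraries labelled wild type 1 to 4 stood at 0.31, -0.23, -0.062 and -0.31. The Arg1 ko libraries stood at -0.047, -0.047, 0.28 and 0.11. Wild type 1 was the highest library of all 8 on this scale and wild type 4 the lowest, so the Arg1 ko values lay within the wild-type range. Arg1 ko 3 was the highest library in 18 members (45%, against 6.43% of tested genes), and wild type 1 in another 18 (45%, against 26.5%). Wild type 4 was the lowest in 24 members (60%, against 24.3% of tested genes), wild type 2 in 8 (20%, against 8.6%) and wild type 1 in 1 (2.5%, against 28.8%).

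Transcript length moved with the difference. Over the 40 members the rank correlation of exon length with the difference was 0.42 (Spearman), and over 16361 tested genes it was 0.41. Both describe genes measured in the same 8 libraries, and genes are not independent replicates. The 20 members with longer exons (4.1 to 11.2 kilobases) had a median difference of 0.24, with 17 higher in Arg1 ko. The 20 with shorter exons (1.14 to 3.99 kilobases) had a median of 0.029, with 11 higher. Longer members thus leaned higher and shorter ones lay around 0. All tested genes divided at the same length had medians of 0.079 and -0.076. After each library's trend with length was taken out, a step chosen after seeing the data, the members' median was 0.12 with 32 higher, no member passed (0 of 40), and the rank correlation with length was 0.10. In that fit the medians of the longer and the shorter members were 0.15 and 0.10. Pole stood at 0.34, Pola1 at 0.35 and Uhrf1 at 0.61, while Gins1, Gins4, Pcna and Rfc4 took positive values.

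**Figure D4:**
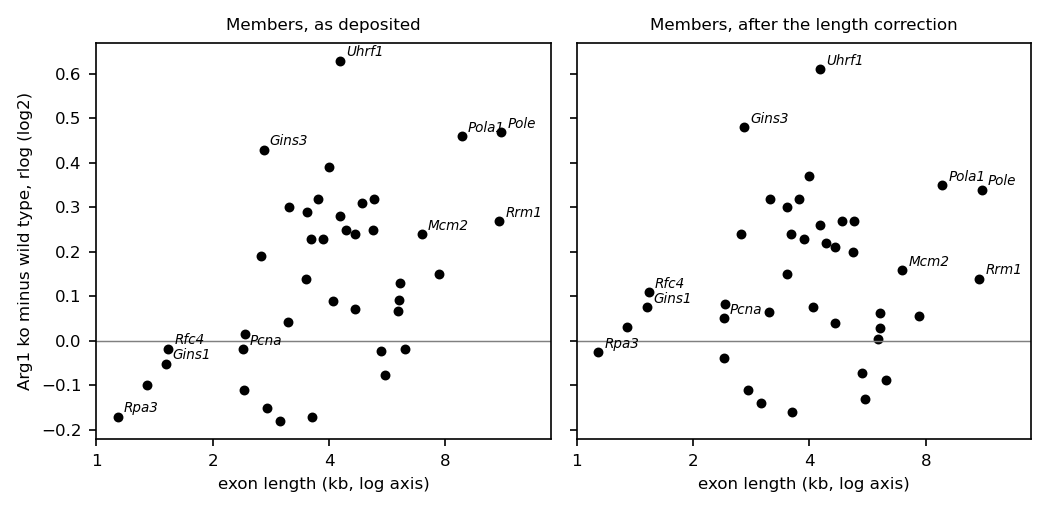
Difference of each member (Arg1 ko minus wild type, rlog, log2) against the exon length of its gene (kilobases, log axis), as deposited on the left and after the length correction on the right. On the left Pole and Pola1, among the longest, lie near the top and Rpa3, the shortest, below 0, while Uhrf1 stays the highest on both sides.

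Other genes of the pathway, listed by name with earlier results of these data known, were read from the main fit, without the length correction. Of 45 other replication genes 32 had a higher and 13 a lower mean in Arg1 ko, with a median of 0.12 and none past the test (limma, adjusted p of 0.522 or more; 5 with an unadjusted p under 0.05, all higher, or 11.1% against 4.73% of tested genes). With the smallest p on the higher side were Cdc7 (0.57), the kinase that fires origins, Clspn (0.52), a checkpoint mediator at the fork, Ticrr (0.50), which helps to assemble the active helicase, and Dnmt1 (0.41), the methyltransferase partner of Uhrf1. Clspn (0.70) and Dnmt1 (0.56) passed without the library labelled wild type 3. With the smallest p on the lower side were the origin binding subunits Orc6 (-0.23) and Orc2 (-0.15) and the polymerase subunits Pole3 (-0.16) and Pold4 (-0.15). Of 32 tested G1/S regulators 22 were higher and 10 lower, with a median of 0.083 and none past the test (limma; 7 higher and 2 lower with an unadjusted p under 0.05, or 21.9% and 6.25%, against 4.73% and 4.37% of tested genes). Without the library labelled wild type 3, E2f8 (0.80), Cdk6 (0.45) and Rbl1 (0.41) passed. For these genes, and for Clspn and Dnmt1, that library is the wild-type one nearest to Arg1 ko. Leaving it out thus enlarges their differences by construction. Among the G1/S regulators E2f8 (0.59) and E2f7 (0.40), which are repressors of E2F targets, Ccnd2 (0.45), a D-type cyclin, and Tfdp1 (0.28), the E2F partner, had the smallest p on the higher side. On the lower side were the CDK inhibitors Cdkn1a (-0.40), Cdkn2d (-0.34) and Cdkn1c (-0.23) and the repressor E2f5 (-0.21). Cdkn1a, which halts cells before S phase, stood at 12.60, 12.70, 12.28 and 13.53 in wild type and at 12.20, 12.37, 12.49 and 12.44 in Arg1 ko. Its highest value was in wild type 4, the library with the lowest replication genes. Wild type 1, with the highest replication genes, did not have the lowest Cdkn1a, and its 12.60 lay above every Arg1 ko value. A link between Cdkn1a and the replication genes was not tested. Cdkn2a was under the filter, with a mean of 0.86.

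Mitosis genes, which act after replication, had a higher mean in Arg1 ko in 30 of 30 cases, with a median of 0.48 and differences from 0.085 to 0.85. None passed the test (limma), 18 had an unadjusted p under 0.05 (60%, against 4.73% of tested genes higher), and the difference between this list and the replication genes was not tested. Exon length and difference had a rank correlation of 0.34 (Spearman) in this list, and its values are not corrected for length. Without the library labelled wild type 3, 6 of 30 passed, all higher (20%, against 2.85% of tested genes), from Cenpe (0.73) to Ect2 (1.07), with Mki67, Cenpf, Kif20a and Kif23 between them. In all 6 that library is the wild-type one nearest to Arg1 ko, so leaving it out enlarges their differences by construction. Ect2 (0.85), which positions the cleavage furrow, Mki67 (0.73), the common proliferation marker, Cenpf (0.72), a kinetochore protein, and Kif20a (0.68), a motor of cell division, had the smallest p. By library the mitosis list stood at 0.15, -0.58, 0.027 and -0.54 in wild type and at 0.0027, 0.12, 0.59 and 0.23 in Arg1 ko. It shared with the replication genes its low values in wild type 2 and 4 and its high value in Arg1 ko 3. It differed in wild type 1, which was the highest library for replication genes (0.31) and the third highest for mitosis genes.

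**Figure D5:**
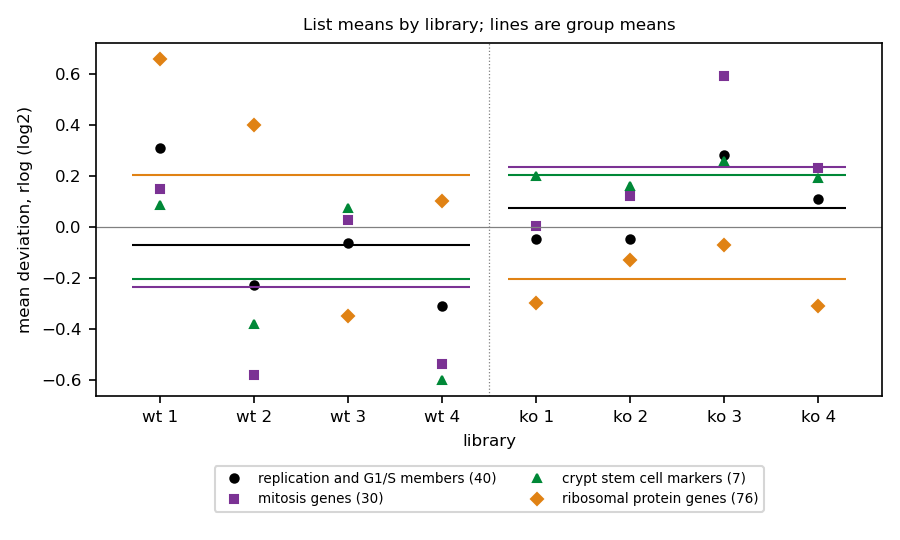
Mean deviation of 4 gene lists in each library (points; rlog, log2) with the group means as lines. Replication and mitosis genes are low in wild type 2 and 4 and high in Arg1 ko 3, and ribosomal protein genes are highest in wild type 1 (0.66) and wild type 2 (0.40).

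Markers of the cells that the tissue could hold were read beside these genes, also without the length correction. By the labels the source is colon tissue, while the extraction describes clumps of epithelium shaken off with 30 mM EDTA. The 9 epithelial markers were high, with mean rlog from 13.17 to 16.50, but the 8 fibroblast markers were present too, at 9.25 to 13.18. Epithelial markers were higher in Arg1 ko in 2 of 9, with summed levels of 18.15 to 18.63 in wild type and 18.19 to 18.42 in Arg1 ko. Crypt stem cell markers were higher in Arg1 ko in 7 of 7 tested cases, by a median of 0.39, led by Lgr5 (0.70), Axin2 (0.58), Ascl2 (0.63) and Ephb3 (0.39). Their summed level (log2 of the summed linear values) ran from 11.52 to 11.93 across wild type and from 11.95 to 12.02 across Arg1 ko, and the eighth marker, Olfm4, was near 0. The Arg1 ko libraries therefore all lay above the wild-type ones in this sum, though only just (11.95 against 11.93). This was not so for the replication genes (14.08 to 14.65 in wild type and 14.29 to 14.61 in Arg1 ko). Singly, 2 of 7 stem cell markers had all Arg1 ko values above all wild-type values (28.6%, against 2.36% of tested genes). The difference between this list and the replication genes was not tested. Mature colonocyte markers, of the cells at the crypt top that no longer divide, were higher in 6 of 8, with summed levels of 18.52 to 18.88 and 18.64 to 18.99. Fibroblast markers were higher in 6 of 8, with summed levels of 14.69 to 14.98 and 15.01 to 15.10, led by Col1a1 (0.83), Col3a1 (0.70) and Col1a2 (0.57). Dcn (-0.11), the fibroblast marker with the highest mean, and Vim (-0.022) were lower, and the median of the 8 was 0.21. The fibroblast sums, like the stem cell sums, did not overlap. How often the sums of other gene lists stay apart was not determined. Singly, 3 of 8 fibroblast markers had all Arg1 ko values above all wild-type values (37.5%, against 2.36% of tested genes). B cell markers were lower in 6 of 7 tested, with summed levels of 8.63 to 9.65 and 8.98 to 9.15, highest in the library labelled wild type 3, and Fcer2a, which marks mature B cells, was under the filter. The other immune lists overlapped between the genotypes. T cell markers were higher in 3 of 7, with summed levels of 9.76 to 10.62 and 10.24 to 10.53. Macrophage and neutrophil markers were higher in 4 of 8, with summed levels of 11.71 to 11.96 and 11.72 to 11.92. The 4 higher were Adgre1 (0.35), Csf1r (0.24), Ptprc (0.23) and Cd68 (0.10), and the 4 lower were the neutrophil marker Ly6g (-1.35), S100a9 (-0.69), S100a8 (-0.60) and Itgam (-0.11). None of these markers passed the test (limma). Without the library labelled wild type 3, 8 did. Higher were 3 of 8 fibroblast markers, Col1a1 (1.01), Col3a1 (0.83) and Col1a2 (0.68), and 2 of 7 crypt stem cell markers, Lgr5 (0.85) and Axin2 (0.78), against 2.85% of tested genes. Lower were 2 of 9 epithelial markers, Krt18 (-0.50) and Lgals4 (-0.49), and Ly6g (-1.91), against 3.28%. In all 8 that library is the wild-type one nearest to Arg1 ko, so here too leaving it out enlarges the differences by construction. The part of any of these cells in the differences of the replication genes was not tested.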

How the data were processed

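Messenger RNA of the colon of 8 mice, 4 wild type and 4 Arg1 ko, was sequenced from 1000 ng of total RNA with a stranded kit, per the labels' protocols. DESeq2 1.16.1, featureCounts (Subread 1.5.3), STAR 2.5.2b and BWA 0.7.14-r1136 are named, with the build GRCm38, per the submitters' processing notes. Their order, options and strand setting are not stated there. The authors deposited regularised log2 values (rlog), scaled for library size and drawn toward each gene's mean, which shrinks differences of weakly expressed genes. Counts and depth cannot be had from them. All 8 columns were matched by label.

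Genes were named from GENCODE vM21 (53274 of 53465 IDs), whose coordinates, 1-based on GRCm38, are given. A mean rlog of at least 3 was required for testing, done in R 4.3.3 by limma 3.58.1 (variance trend, group term only, two-sided, Benjamini-Hochberg over 16380 genes at 0.05). Replicate numbers follow the order of deposit. The p-values measure the spread between these libraries, in which differences between mice and between preparations cannot be told apart. Members and lists were chosen with earlier results of these data known. Members with the smallest p of each role, those lower in Arg1 ko, and Mcm2 to Mcm7, Pcna, Ccne1, Ccne2 and E2f1 are given in full. Of the other lists, up to 4 genes in each direction are named, and further polymerase and primase subunits were added after their values were seen. Pola1, beyond this rule, was chosen after its values were seen. Ribosomal protein genes were taken by symbol. Length is the union of exons; its trend was removed with natural splines (5 degrees of freedom). Promoters printed are those of smallest p with a match within 150 bases before the start and no annotated exon there. The script was tested on simulated data before use. There, 28% of genes changed by 0.5 passed, and 78% of those changed by 1.0, with 8 calls among unchanged genes. The simulation drew independent values with the same SD in both genotypes. In the data the SD was larger in wild type for 90.9% of tested genes, so these shares may not hold for them. All members but Uhrf1 differed by less than 0.5, so not passing does not show that a gene was unchanged. Exons of 12 members overlap a gene on the opposite strand; with the strand setting unknown, reads of such pairs may be shared. Of named pseudogene copies, Pcna-ps2 had rlog values of 3.00 to 3.40. Alternatives were another filter or none, other scaling, other variance moderation and leaving out each library; corrections for length or length and GC, and leaving out wild type 1 and 2, were chosen after seeing the data.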

Additional observations from a re-analysis of the deposited data

Results flagged for a closer look

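In 3 of the 80 groups of 4 values (40 members in 2 genotypes), 1 library lay far from the other 3 by Dixon's criterion, which chance meets in about 1 of 20 groups. Gins1 in wild type 1 stood at 7.23, against 6.03 to 6.17 in the other wild-type libraries. Fen1 in wild type 1 stood at 9.30, against 8.53 to 8.63. Rpa2 in Arg1 ko 3 stood at 8.92, against 8.51 to 8.55 in the other Arg1 ko libraries.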

How the results depend on the processing

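No paired analysis was possible because the numbers of the libraries only give the order of deposit, which pairs no mice. Calls over all genes numbered 0 in all alternatives except leaving out libraries, where they ran from 0 to 1005 (1005 without the library labelled wild type 3), and called members from 0 to 2. The members' median ran from 0.086 to 0.26 when leaving out 1 library, with 24 to 37 higher, and was 0.27 with 37 higher without wild type 1 and 2. With TTTCCCGC alone, 6 promoters held the motif. Cdc6, Mcm2 to Mcm7, Gins3, Pole, Lig1, Rrm1, Uhrf1, Ccne1, Ccne2 and E2f1 kept a positive sign and Rfc3 and Rrm2 a negative one in all 17 alternatives. The alternatives of filter and of variance moderation keep every sign by construction, so only the others could turn a sign. The differences that turned positive were these. Without wild type 1 and 2 they were Gins1 0.26, Gins4 0.11, Pcna 0.11, Rfc2 0.30, Rfc4 0.27, Rpa1 0.0083, Rpa2 0.053, Rpa3 0.12, Dut 0.22 and Ung 0.21. After the length correction they were Gins1 0.076, Gins4 0.032, Pcna 0.052 and Rfc4 0.11, and after that for length and GC 0.071, 0.029, 0.048 and 0.10. Leaving out 1 library gave Gins1 -0.17 to 0.23, Gins4 -0.20 to 0.0028, Pcna -0.078 to 0.074, Rfc2 -0.15 to 0.17, Rfc4 -0.15 to 0.19, Rpa2 -0.31 to 0.0034, Rpa3 -0.31 to 0.036, Dut -0.23 to 0.11 and Ung -0.12 to 0.14. The cause was not tested. None of these turned differences passed the test.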
